A study of Mus musculus with 11 samples.

Results

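The 4 vehicle libraries hold RNA of mouse CD8 T cells that received neither active agent of the study, and they make up 4 of its 11 libraries. They were taken as the libraries whose treatment label names ethanol followed by protein buffer, and the deposited values were turned back into TPM, a gene's share of a library's transcripts, corrected for gene length and scaled to nearly the same total in each library. The cells came from spleens of C57BL/6 mice and were enriched with a CD8 isolation kit. They received ethanol and PBS holding 10% glycerol, the buffers of the active agents. A pretreatment of 22 h was followed by 24 h of stimulation with antibodies against CD3 (1 µg/mL) and CD28 (0.5 µg/mL). The other libraries had recombinant human AOAH, a lipase that removes acyl chains, at 10 µg/mL with ethanol (4 libraries), or the phosphatidylcholine PC16:0-20:4 at 60 µM with the protein buffer (3 libraries), and were stimulated alike.

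All groups share the wild-type mouse strain, the stimulation and the medium with 10% serum and 50 µM 2-mercaptoethanol. The labels differ on whether AOAH was given before or during stimulation, which leaves the time of its buffer open too. They also differ on plate-bound antibody against beads, and on whether the medium held interleukin-2 at 100 IU/mL, so the cells may have had this cytokine from outside. No unstimulated library is part of the series, so the values are levels after stimulation and show no change caused by it. Nothing in the labels ties the 4 libraries to separate animals or cultures, so their spread may be technical, and each carries a batch number of its own, so library and batch cannot be told apart.

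As background, a CD8 T cell reads peptides on MHC class I through its T cell receptor, the CD3 chains and the coreceptor made of CD8 alpha and beta. Signals through the kinases LCK and ZAP70, with CD28 as costimulus, drive growth, cell division and the arming of the cell with granzymes, perforin, interferon gamma and chemokines. Such growth needs ribosomes, glycolysis and nucleotide synthesis, and many of these functions are encoded by families of paralogs of which a given cell type uses only some.

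The libraries carried the markers of their label. Cd8a, the alpha chain of the coreceptor, stood at 383, 379, 376 and 375 TPM in vehicle 1 to 4, and Cd4 at 0.20, 0.42, 0.29 and 0.13 TPM. Gzmb, the protease granzyme B, stood at 3358, 3250, 3364 and 3215 TPM. Xcl1, a chemokine that draws cross-presenting dendritic cells, stood at 2964, 2748, 2837 and 2777 TPM. Ifng, interferon gamma, stood at 1623, 1340, 1644 and 1357 TPM, lower in vehicle 2 and 4 than in the other two. Among 25562 genes Gzmb ranked 47, Xcl1 65, Ifng 125 and Cd8a 347 by mean.

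In GRCm38 the markers lie at chr6:71373427-71379173 on the plus strand (Cd8a), chr14:56258838-56262260 on the minus strand (Gzmb), chr10:118441046-118445892 on the plus strand (Ifng) and chr1:164931644-164935527 on the minus strand (Xcl1). The 60 bases just before each RefSeq start (GRCm38.p6) are shown because they hold the region in which a TATA box would lie, and the word TATAAA is in capitals:
Cd8a (chr6:71373367-71373426, +): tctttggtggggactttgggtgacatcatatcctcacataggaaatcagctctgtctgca
Gzmb (chr14:56262335-56262394, -): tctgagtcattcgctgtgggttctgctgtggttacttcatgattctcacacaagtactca
Ifng (chr10:118440986-118441045, +): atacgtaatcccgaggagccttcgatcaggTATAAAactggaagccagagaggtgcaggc
Xcl1 (chr1:164935523-164935582, -): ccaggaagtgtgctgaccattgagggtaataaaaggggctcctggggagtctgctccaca

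RefSeq and GENCODE place the starts of Gzmb and Xcl1 at different bases. Of the 4 stretches only that of Ifng held the exact word. In the 40 bases before the start, TATAAA stood on the gene's own strand in 2.78% of 27025 genes with a promoter sequence, and on either strand in 3.63%. Among 32 matched genes of a list of cytotoxic and cytokine genes, 3 held it on their own strand (Ifng, Il2 and Tnf) and 4 on either strand. Among the 66 matched genes of the 100 most abundant, Eef2 was the single one. A match describes letters and is no evidence of a bound factor, and a missing match says only that these letters are not in this window.

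Libraries of the vehicle group were close to each other. Between 11569 and 11633 genes reached 1 TPM per library, and 10970 did so in all 4, which is 42.9% of the table. Over 9029 genes averaging 5 TPM or more, the median absolute log2 difference was 0.0649 between vehicle 1 and 3 and 0.0641 between vehicle 2 and 4, and 0.0854 to 0.0911 in the other 4 pairs. Vehicle 1 and 3 thus lay on one side in several results given later, such as Ifng, and vehicle 2 and 4 on the other. No count or read total per library was used here, so the depth of each library is unknown.

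Transcripts were concentrated in few genes. Between 203 and 217 genes held 50% of all TPM, the 10 most abundant held 7.91 to 8.25%, and the 100 most abundant 37.2 to 38.1%. Between 153 and 156 genes passed 1000 TPM. At the other end, 13165 genes (51.5%) stayed under 1 TPM in every vehicle library, of which 3832 were listed at 0 throughout.

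**Figure D1:**
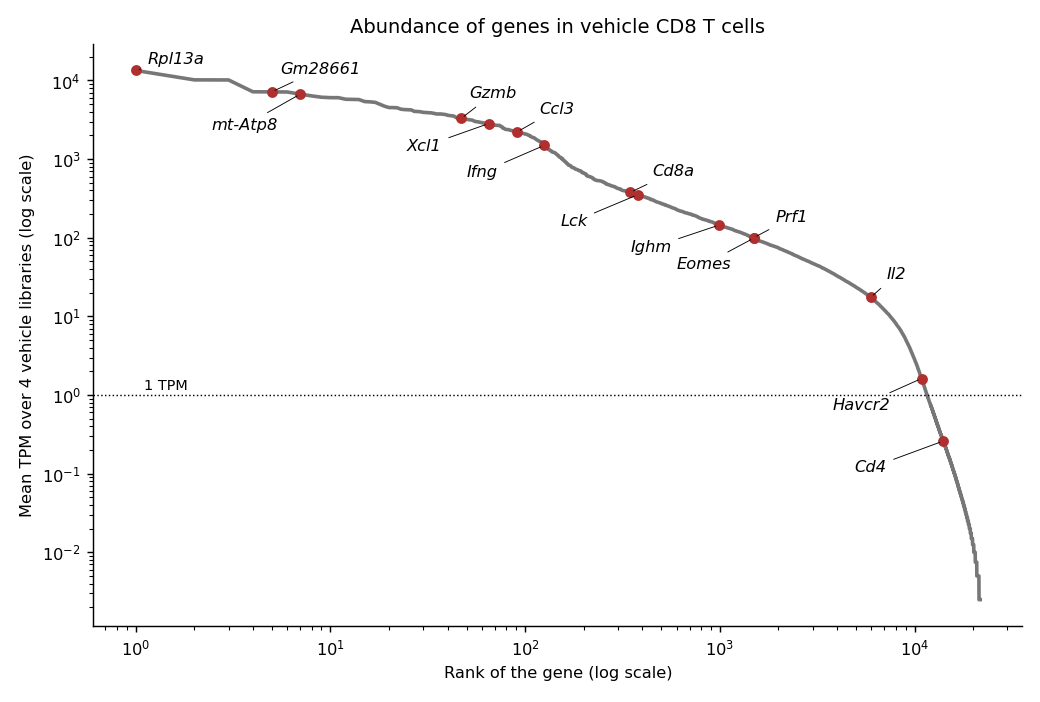
Mean TPM over the 4 vehicle libraries against the rank of each gene, both on log scales, with named genes as points and the 1 TPM level as a dotted line. Gzmb, Xcl1 and Ccl3 sit among the 100 most abundant genes, whereas Cd4 lies under 1 TPM.

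Ribosomal protein genes led the list. Rpl13a, a protein of the large ribosomal subunit, was highest at 12792, 13709, 13192 and 13982 TPM (mean 13418 ± 531, SD, n = 4). Eef1a1, which brings aminoacyl-tRNA to the ribosome, followed at 10182 ± 67.9 TPM (SD, n = 4), and Rplp1, of the ribosomal stalk, at 10156 ± 132 TPM (SD, n = 4). These means of Eef1a1 and Rplp1 were closer to each other than the spread of Rplp1. Rps27 (7182 TPM), Rps14 (6370), Rps18 (6126), Rpl18 (6049), Rps24 (6044), Rps2 (5754), Rpl23a (5393), Rps15 (5346), Rps12 (5270), Rpl32 (4977), Rpl36 (4526), Rpl10 (4522), Rpl13 (4318) and Rplp0 (4244), all of the ribosome, were also among the 25 highest. Besides ribosomal genes, that set held the mitochondrial genes mt-Atp8 (6704 TPM), mt-Co1 (5770) and mt-Nd1 (4699), which code for parts of the ATP synthase and the respiratory chain. It also held Ptma (4495), the acidic nuclear protein prothymosin alpha, Hsp90ab1 (4267), a cytosolic chaperone, and the pseudogene Gm28661 (7165). The high TPM of mt-Atp8 rested on an estimated mean of 308 counts, beside 138896 for mt-Co1 and 56637 for mt-Nd1. These counts were estimated from the authors' deposited base mean.

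**Figure D2:**
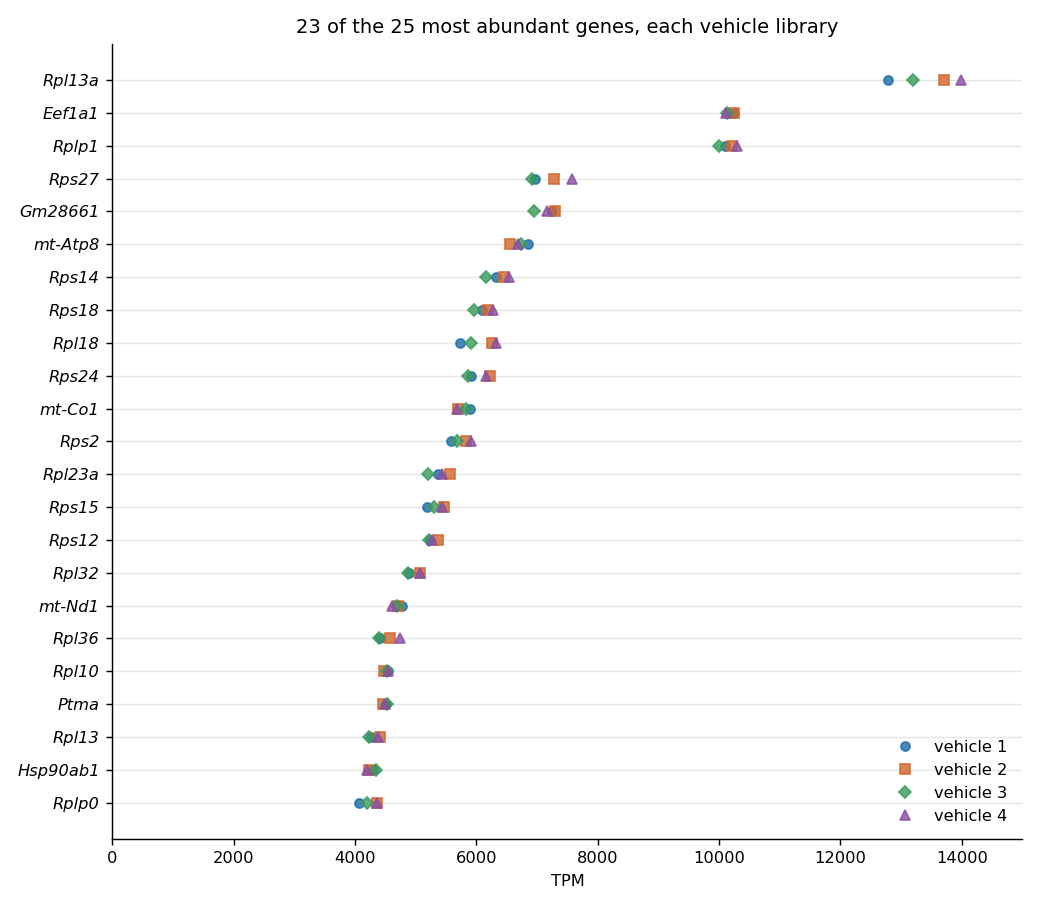
TPM of 23 of the 25 most abundant genes, 1 symbol per vehicle library, on a linear axis from 0. Rpl13a, at 12792 to 13982 TPM, is apart from the rest, and the 4 libraries lie close together for each gene.

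Of the 100 most abundant genes, 67 were in the list of cytosolic ribosomal proteins, 6 lay on the mitochondrial genome, 4 were translation factors and 4 belonged to the actin cytoskeleton. The cytotoxic and cytokine genes among them were Gzmb, Xcl1 and Ccl3. Others outside these groups were Tpt1 (3533 TPM), a growth-related protein bound to translation, and Mif (2374), a cytokine kept in stores inside cells. A further one was Serbp1 (2138), an mRNA-binding protein. Rpl36al (2375), a ribosomal protein gene by name, is not in the ribosomal list. The 67 and the ribosomal share given next therefore leave Rpl36al out.

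Summed over 91 genes, cytosolic ribosomal proteins took 27.5%, 28.6%, 27.5% and 28.6% of TPM in vehicle 1 to 4 (28.0% ± 0.612, SD, n = 4). Their values were lower in vehicle 1 and 3 than in vehicle 2 and 4. A gene of this group had a median of 2825 TPM, and the highest, Rpl13a, was at 4.75 times that level. Tissue-restricted relatives in the same group were far lower: Rpl3l, the muscle form, had a mean of 0.0175 TPM, Rpl39l 1.48 TPM and Rps4l 3.13 TPM, whereas Rpl22l1 reached 1009 TPM and Rps27l 474 TPM.

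Translation factors held 3.15% ± 0.0239 of TPM, led by Eef1a1, Eif5a (2871 TPM) and Eef2 (2286 TPM). Nucleolar and ribosome biogenesis genes held 1.36% ± 0.0131, led by the nucleolar chaperone Npm1 at 3750 TPM. Chaperones held 2.51% ± 0.0250, and the actin cytoskeleton 2.54% ± 0.0268, led by the actin-sequestering peptide Tmsb4x at 3754 TPM. The proteasome held 1.08% ± 0.0114, led by Psmb8 at 746 TPM, a subunit of the immunoproteasome. Genes of MHC class I and antigen processing held 0.772% ± 0.00774, led by B2m at 2913 TPM, the light chain of class I. All of these are percentages of TPM with SD over n = 4.

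Energy metabolism showed a larger share for the respiratory chain than for glycolysis. Nuclear genes of oxidative phosphorylation took 2.66% ± 0.0417 of TPM over 85 genes, led by Atp5b, the beta subunit of ATP synthase, at 2169 TPM. Glycolysis took 0.921% ± 0.0156 over 21 genes (both SD, n = 4), led by Gapdh at 2684 TPM, Ldha at 1751 TPM and Pkm at 1225 TPM. The lists differ in their number of genes. The glycolysis share may be too low by an amount not measured here. The row of Aldoa, the main aldolase of most tissues, stood at only 33.6 TPM and appears to combine 2 gene IDs. In the authors' deposited table the base mean of one ID named Aldoa was 22776 and that of the other 3.63, and Aldoa values in the TPM table were no whole multiples of 0.01 TPM, unlike 99.9% of values. If the row were the mean of 2 log2 values, one of them near 0, Aldoa would stand at 1174, 1425, 1071 and 1141 TPM in vehicle 1 to 4. Whether the row was made in that way was not tested. In all, 23 symbols had such values, and among those of at least 5 TPM were Septin2 (50.9 TPM), Snhg4 (24.8) and Bfar (11.5), so their levels are not given weight here.

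Genes of the mitochondrial genome took 3.54%, 3.39%, 3.62% and 3.51% of TPM. A further 1.71% ± 0.0433 (SD, n = 4) was listed under 5 pseudogenes on chromosome 1 that are nuclear copies of mitochondrial genes, and adding them raised the share to 5.22%. Gm28661 (chr1:24614885-24615565, minus strand, GRCm38, an unprocessed pseudogene) was identical to mt-Co2 over all 681 bases, and stood at 7165 TPM beside 2463 TPM for mt-Co2. Gm28437 was identical to mt-Co3 over 783 bases (3723 against 1871 TPM), and Gm10925 to mt-Atp6 over 678 bases (2401 against 1065 TPM). Gm28439 was identical to a part of mt-Nd4 over 876 bases but stood at 8.88 TPM against 1489 TPM. Gm28438 (chr1:24612775-24613119, minus strand) differed from mt-Nd3 at 1 of 345 bases and stood at 3748 TPM beside 389 TPM for mt-Nd3. Reads from identical sequences cannot be assigned to one place, so the split between such copies carries no meaning. Gm28438 and mt-Nd3 can be told apart only by reads over the 1 base that differs.

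The first 60 bases of the transcript of Gm28438 and of mt-Nd3 (GENCODE M21), with the differing base in capitals, and bases 31 to 90 of Gm28661, which are the same in mt-Co2, show how little separates the copies:
Gm28438: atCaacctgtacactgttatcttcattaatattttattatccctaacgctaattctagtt
mt-Nd3: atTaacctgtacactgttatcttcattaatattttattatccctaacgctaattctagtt
Gm28661: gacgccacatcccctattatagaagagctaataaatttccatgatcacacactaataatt

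Cytotoxic and cytokine genes took 1.48%, 1.34%, 1.46% and 1.35% of TPM over 39 genes, higher in vehicle 1 and 3. The leading members after Gzmb and Xcl1 were Ccl3 (2218 ± 257 TPM, SD, n = 4), Ifng (1491 ± 165 TPM, SD, n = 4) and Ccl4 (1217 TPM), with Nkg7 (511 TPM), a granule membrane protein, and Srgn (463 TPM), the proteoglycan that packs granule contents. Prf1, the pore-forming perforin, stood at 105, 97.0, 106 and 90.3 TPM. Of 18 genes of the cytotoxic machinery 16 reached 1 TPM in every library, beside 42.9% of all genes. Among the 16 were Cst7 (129 TPM), Ctsw (107), Lamp1 (76.6) and Fasl (7.50).

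Of 26 cytokine genes 11 reached 1 TPM in every library, and 13 stayed under 1 TPM in all 4, shares near those of all genes (42.9% and 51.5%). Besides Ifng, the members of the tumour necrosis factor family Ltb (432 TPM), Lta (396) and Tnf (114) led, with Tgfb1 at 111 TPM. Csf2, the growth factor GM-CSF, stood at 63.4, 46.2, 59.2 and 48.4 TPM, and Il3 at 57.5, 40.1, 50.5 and 42.6 TPM, both higher in vehicle 1 and 3. Il2, the main T cell growth factor, stood at 20.3, 15.1, 19.5 and 14.9 TPM, rank 5951. Lif (27.8 TPM) and Osm (11.2) were also present. Il4 (0.425 TPM), Il5 (0.15), Il10 (0.105), Il17a (0.672), Il21 (0.03) and Il22 (0.0775) were under 1 TPM, Il13 averaged 1.33 TPM and Il24 was listed at 0.

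Genes of early activation and of quiescence were present side by side. All 12 of an early activation list reached 1 TPM in every library, beside 42.9% of all genes. They were led by Tnfrsf9, the costimulatory receptor 4-1BB, at 394 TPM and included Myc (343 TPM), Cd69 (170), Irf4 (160) and Il2ra (155). All 12 of a naive and quiescent list also reached 1 TPM in every library. These were led by Ccr7, the receptor that guides cells to lymph nodes, at 429 TPM, with Tcf7 (245 TPM) and Lef1 (109). Klf2, a factor of quiescence, stood at 38.7, 46.0, 38.5 and 50.4 TPM, lower in vehicle 1 and 3. In bulk RNA, fewer cells of one kind and less RNA per cell cannot be told apart, so these levels do not show whether single cells hold both sets.

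Of 11 inhibitory receptors 8 reached 1 TPM in every library, beside 42.9% of all genes. Cd160 had the highest mean, 56.2 TPM, a value inside the range of Pdcd1, the receptor PD-1, which stood at 58.8, 48.9, 60.9 and 51.1 TPM. By mean Vsir (50.9), Tigit (36.3), Lag3 (26.1) and Btla (21.6) were next. Havcr2, the receptor TIM-3, stood at 1.62 TPM, and Klrg1 (0.147), Entpd1 (0.235) and Cd244a (0.253) were under 1 TPM. Of 10 genes listed for exhausted and memory states 8 reached 1 TPM in every library, beside 42.9% of all genes, and the median was 21.1 TPM. Eomes was highest at 99.2 TPM, whereas Tox stood at 5.57, Prdm1 at 0.365 and Cx3cr1 at 0.075 TPM.

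DNA replication genes held 0.622%, 0.584%, 0.622% and 0.579% of TPM over 46 genes. They were led by Pcna, the sliding clamp of DNA polymerase, at 787 TPM, with the helicase subunits Mcm6 (333 TPM), Mcm7 (321) and Mcm3 (319). Histones held 0.469% ± 0.00779 (SD, n = 4), led by H2ac24 at 1988 TPM, far above the median gene at 2.24 TPM. Libraries were made from polyadenylated RNA, and replication-dependent histone transcripts lack such tails, so the level of these genes is not on the same footing.

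The leading paralog of a family was examined in 98 families, of which 96 had at least 2 members in the table and at least 5 TPM in sum. A family was called led where the same paralog held over 50% of its TPM in each vehicle library. By that measure 74 of 96 families were led, 18 at over 90% and 10 at over 99% in every library. Shares within a family and a library do not depend on how the library was scaled, and the same paralog was highest in all 4 libraries in 90 of 96 families.

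**Figure D3:**
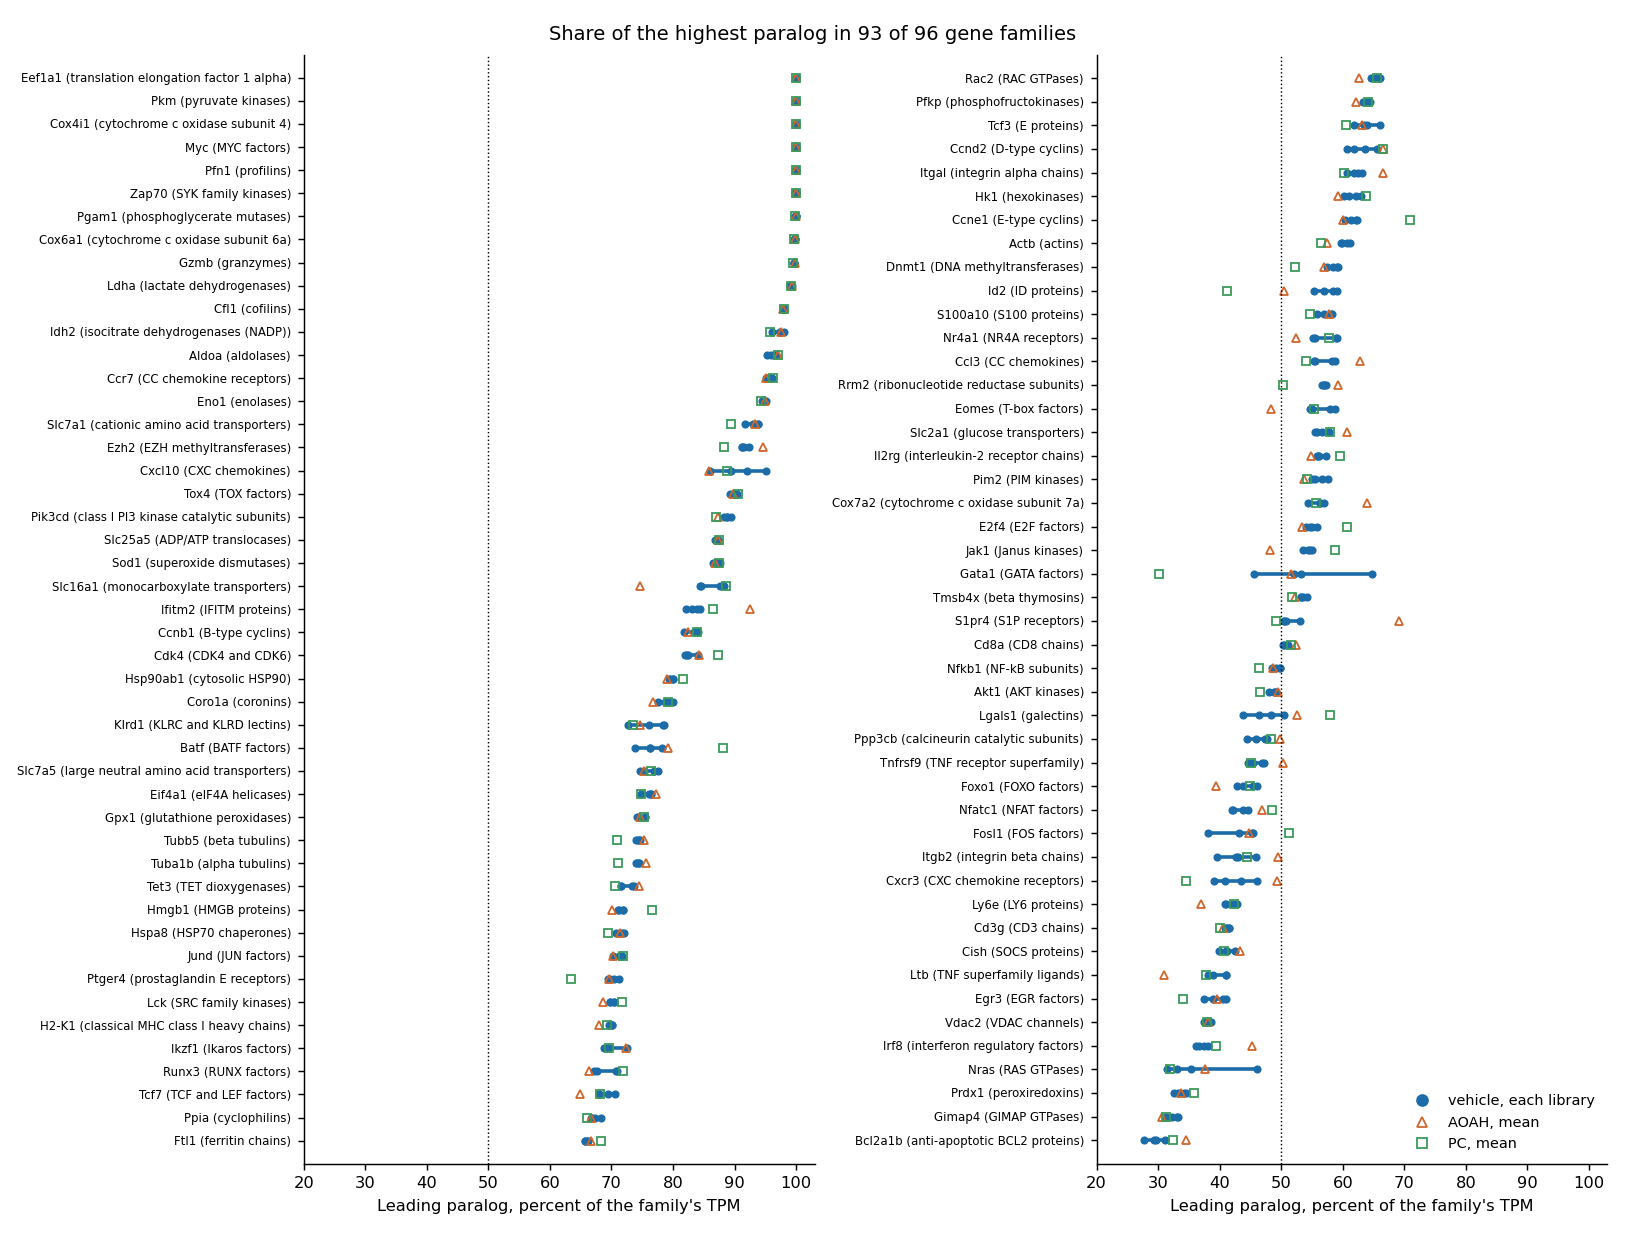
Share of each family's TPM held by its leading paralog, in percent, for 93 of the 96 families sorted by that share. Filled circles are the 4 vehicle libraries with a bar over their range, open triangles the mean of 4 AOAH libraries and open squares the mean of 3 PC libraries, and the dotted line marks 50%. Zap70, Myc and Gzmb sit near 100%, and Gata1 and Nras show the widest ranges among vehicle libraries.

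Effector families ranged from a single member to shared use. Gzmb held 99.6 to 99.7% of granzyme TPM, with Gzmc next at 7.47 ± 1.14 TPM and Gzma at 2.07 TPM. Ccl3 held 55.4 to 58.7% of CC chemokine TPM, followed by Ccl4 and by Ccl1 at 213 TPM. The CXC chemokines summed to only 15.4 TPM, of which Cxcl10 held 86.1 to 95.1% and Pf4 came second at 0.61 TPM. Ltb (432 ± 12.9 TPM) and Lta (396 ± 8.23 TPM, both SD, n = 4) shared the ligands of the tumour necrosis factor family, Ltb being higher in each library. Among receptors of that family Tnfrsf9 held 44.6 to 47.2%, with Cd27 second at 138 TPM.

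Receptors for chemokines and lipids differed in their spread. Ccr7 held 95.5% ± 0.486 (SD, n = 4) of CC chemokine receptor TPM, with Ccr4 second at 6.03 TPM. Cxcr3 (31.3 ± 1.48 TPM) and Cxcr6 (22.4 ± 1.43 TPM, both SD, n = 4) shared the CXC receptors. S1pr4 (33.2 TPM) and S1pr1 (30.2 TPM), receptors for sphingosine 1-phosphate, were nearly even, at 50.4 to 53.0% for S1pr4. Ptger4 held 69.5 to 71.2% of the prostaglandin E receptors, Ptger2 being second at 6.66 TPM. Il2rg, the common gamma chain, held 55.8 to 57.2% of the interleukin-2 receptor chains, with Il2rb second at 169 TPM. Cd8a and Cd8b1 (368 TPM) were even, Cd8a holding 50.2 to 51.1%, and Cd3g (305 TPM) was above Cd3e (172 TPM) among CD3 chains.

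Signalling families close to the T cell receptor ranged from 1 dominant member to an even split. Zap70 (133 ± 1.78 TPM, SD, n = 4) held over 99.9% of its family, with its B cell relative Syk at 0.095 TPM. Lck held 69.8 to 70.5% of the SRC family with Fyn second at 147 TPM. Pik3cd held 88.2 to 89.5% of the class I PI3 kinase subunits with Pik3ca second at 19.1 TPM. Akt1 (116 ± 0.825 TPM) and Akt2 (116 ± 1.88 TPM, both SD, n = 4) could not be ordered. Jak1 held 53.5 to 55.1% of the Janus kinases, before Jak3 at 54.1 TPM. Rac2 held 64.6 to 66.0% of the RAC GTPases, before Rac1 at 142 TPM. Pim2 held 55.0 to 57.7% of the PIM kinases, before Pim1 at 194 TPM. Among RAS GTPases Hras averaged 62.9 TPM, and Nras stood at 68.2, 57.2, 101 and 59.7 TPM, high in vehicle 3 alone. Ppp3cb (54.9 ± 3.96 TPM) and Ppp3cc (52.8 ± 2.37 TPM, both SD, n = 4), catalytic subunits of calcineurin, were within their spread. Cish held 39.9 to 42.5% of the SOCS inhibitors of cytokine signalling, before Socs1 at 45.8 TPM.

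Among transcription factors, Myc (343 ± 2.68 TPM, SD, n = 4) held over 99.9% of its family, with Mycn second at 0.0875 TPM. Jund held 70.2 to 71.7% of the JUN factors, before Junb at 189 TPM. Irf8 (318 ± 14.7 TPM, SD, n = 4) led the interferon regulatory factors with 36.2 to 38.2%, before Irf1 (206 TPM). Eomes held 54.6 to 58.7% of the T-box factors, with Tbx21, which encodes T-bet, second at 55.7 ± 3.18 TPM (SD, n = 4). Tcf7 held 67.9 to 70.6% beside Lef1, and Runx3, which silences Cd4 in CD8 cells, 67.2 to 70.9% beside Runx2 at 8.05 TPM. Nr4a1 (156 TPM) led Nr4a3 (76.9 TPM), and Id2 (50.9 TPM) led Id3 (36.6 TPM). Nfkb1 (264 TPM) led Nfkb2 (112 TPM), and Batf (45.1 TPM) led Batf3 (14.1 TPM).

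Other factor families were less one-sided or had an unusual leader. Tox4, a widely expressed relative, held 89.2 to 90.4% of the TOX family, and Tox itself was second at 5.57 TPM. Gata1, known for the red cell lineage, stood at 3.81 ± 1.19 TPM and Gata3 at 3.10 ± 0.368 TPM (SD, n = 4), a difference within the spread, and Gata1 held 45.6 to 64.8%. Egr3 (58.5 ± 7.69 TPM) and Egr1 (50.7 ± 3.58 TPM, both SD, n = 4) lay near each other. Nfatc1 (44.7 TPM) led Nfatc3 (33.6 TPM), Fosl1 (12.8 TPM) led Fosl2 (8.01 TPM) and Foxo1 (16.2 TPM) led Foxo3 (12.1 TPM). Ikzf1 held 68.8 to 72.5% before Ikzf3 at 61.2 TPM, and Tcf3 61.8 to 66.1% of the E proteins before Tcf12 at 41.4 TPM.

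Families of the cell cycle and of chromatin had mostly a clear leader. Ccnd2 (276 TPM) held 60.7 to 65.5% of D-type cyclins before Ccnd3 (162 TPM), and Cdk4 (344 TPM) 81.9 to 84.0% beside Cdk6 (72.1 TPM). Ccne1 held 60.3 to 62.3% beside Ccne2 at 34.1 TPM, and Ccnb1 81.8 to 84.1% before Ccnb2 at 6.34 TPM. Rrm2 led Rrm1 (131 TPM) with 56.6 to 57.2%. E2f4 held 54.0 to 55.9% of the E2F factors before E2f6 at 35.3 TPM. Ezh2 held 91.2 to 92.3% beside Ezh1 at 14.7 TPM, Dnmt1 57.5 to 59.3% before Dnmt3a at 84.1 TPM, and Tet3 71.5 to 73.7% before Tet2 at 5.64 TPM. Hmgb1 held 71.1 to 71.9% before Hmgb2 at 255 TPM.

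Several families of glycolysis were held almost wholly by 1 paralog. Ldha held 99.1 to 99.3% beside Ldhb at 14.1 TPM, Pkm over 99.9% beside Pklr at 0.005 TPM, Pgam1 99.8 to 100% beside Pgam2 at 0.378 TPM, and Eno1 94.4 to 95.1% before Eno3 at 43.6 TPM. Hk1 (63.6 ± 2.64 TPM) was above Hk2 (39.5 ± 3.67 TPM, both SD, n = 4). Pfkp held 63.2 to 64.4% of phosphofructokinase TPM, before Pfkl at 70.6 TPM. Slc2a1, the glucose transporter GLUT1, stood at 39.8 TPM with Slc2a3 second at 22.5 TPM. Slc16a1 held 84.4 to 88.3% of the monocarboxylate transporters before Slc16a3 at 10.5 TPM. Idh2 held 97.2% ± 0.839 (SD, n = 4) beside Idh1 at 1.62 TPM, and Slc7a5 74.6 to 77.5% before Slc7a6 at 42.1 TPM. Slc7a1 held 91.7 to 93.8% before Slc7a3 at 3.23 TPM. Cox4i1 and Cox6a1 each held over 99.7%, with Cox4i2 at 0.035 and Cox6a2 at 2.14 TPM, and Slc25a5 held 86.8 to 87.3% beside Slc25a4 at 178 TPM. Cox7a2 held 54.3 to 57.0% before Cox7a2l at 188 TPM, and Vdac2 (222 TPM) led Vdac1 (190 TPM). Aldoa led Aldoc (1.37 TPM) although its own row may be too low, as described.

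Each structural and stress family named here had the same leader in all 4 vehicle libraries. Pfn1 (3551 TPM) held over 99.9% before Pfn2 at 1.31 TPM, and Cfl1 97.9 to 98.1% before Dstn at 23.2 TPM. Eef1a1 held all listed TPM of its family, its muscle and nerve relative Eef1a2 being listed at 0. Actb held 59.8 to 61.2% before Actg1 at 1810 TPM, Tmsb4x 53.1 to 54.2% before Tmsb10 at 3247 TPM, and Coro1a 77.6 to 80.1% before Coro1b at 118 TPM. Tuba1b held 73.9 to 74.5% of alpha tubulin before Tuba4a at 319 TPM, and Tubb5 73.9 to 74.6% of beta tubulin before Tubb4b at 325 TPM. Hsp90ab1 held 79.4 to 80.1% beside Hsp90aa1 at 1083 TPM, Hspa8 70.7 to 72.0% before Hspa5 at 727 TPM, and Ppia 66.6 to 68.3% before Ppib at 363 TPM. Eif4a1 held 74.8 to 76.4% before Eif4a2 at 397 TPM.

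The antioxidant families and iron stores were also mostly led. Gpx1 held 74.1 to 75.5% before Gpx4 at 121 TPM, Sod1 86.4 to 87.6% before Sod2 at 101 TPM, and Ftl1 65.7 to 66.3% beside Fth1 at 547 TPM. Prdx1 (265 TPM) led Prdx3 (157 TPM) with 32.6 to 34.5%. Surface and immune families included H2-K1, which held 69.6 to 70.2% beside H2-D1 at 887 TPM, and Itgal, the alpha chain of LFA-1, which held 60.6 to 63.1% before Itga4 at 19.8 TPM. Itgb2 (172 ± 11.5 TPM, SD, n = 4) and Itgb7 (147 TPM) changed order between libraries. Klrd1 led Klrc1 (18.6 TPM), Lgals1 (79.0 TPM) led Lgals9 (53.6 TPM), and S100a10 (329 TPM) led S100a11 (194 TPM). Ifitm2 held 82.2 to 84.4% before Ifitm10 at 3.53 TPM. Ly6e (439 TPM) led Ly6a (336 TPM), and Gimap4 (419 TPM) led Gimap1 (186 TPM). Bcl2a1b (159 ± 10.7 TPM) and Mcl1 (157 ± 2.63 TPM, both SD, n = 4), which block cell death, could not be ordered. Bcl2a1b has near-identical copies in mice, as do some MHC class I and LY6 genes, so reads of these families could be split in ways not known here.

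Whether the lead was the same without vehicle was tested against both treated groups. The lead is the log2 ratio of the leading paralog to the rest of its family, with 1 TPM added to each, so that it understates ratios of low families. It differed at an adjusted p under 0.05 in 47 of 96 families between vehicle and AOAH (49.0%) and in 44 of 96 between vehicle and PC (45.8%; limma, two-sided, with Benjamini-Hochberg adjustment over both comparisons, which share the vehicle libraries). The lead was larger in vehicle in 20 and smaller in 27 of the 47, and larger in 24 and smaller in 20 of the 44. The choice of the leader in vehicle libraries itself favours a larger lead there. That limit also holds for the positive differences, vehicle minus treated, given next, among them those of Ltb, Eomes, Id2 and Gata1. Where the rest of a family is near 0 TPM, the added 1 TPM makes the lead follow the leader's own level. Eef1a1 held 100% in every vehicle and AOAH library, yet its lead differed between them (0.0811, adjusted p = 0.0156, limma). Pkm and Zap70 held over 99.9% in every library and were called against both groups. Such calls are in both counts and show no change of paralog. The same paralog was highest in all AOAH and PC libraries in 88 of 96 families. The fit took the 11 libraries as independent, which the labels do not show. Its p-values, here and in the next paragraphs, may therefore measure technical spread and do not show whether a difference would hold over animals.

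Among families whose lead differed, S1pr4 held 51.2% ± 1.22 (SD, n = 4) of the S1P receptors in vehicle and 69.1% ± 1.26 (SD, n = 4) with AOAH, where S1pr1 stood at 7.26 TPM against 30.2 TPM. The difference of the lead, vehicle minus AOAH, was -1.01 ± 0.0450 (SE, adjusted p = 1.26e-07, limma). With PC it was 0.11 (adjusted p = 0.0837, limma), S1pr4 standing at 54.5 and S1pr1 at 54.6 TPM. Slc16a1 held 86.2% in vehicle and 74.7% with AOAH, as Slc16a3, a lactate exporter, stood at 10.5 and 25.8 TPM (difference 1.02, adjusted p = 6.88e-05, limma). Ltb held 39.8% ± 1.52 (SD, n = 4) of its family in vehicle, and 31.0% ± 1.13 (SD, n = 4) with AOAH, where Lta was the highest in all 4 libraries. That difference was 0.55 ± 0.0501 (SE, adjusted p = 1.71e-05, limma).

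Eomes held 56.6% of T-box TPM in vehicle (54.6 to 58.7%) and 48.3% with AOAH (47.6 to 49.9%), ranges that did not overlap (difference 0.47, adjusted p = 0.000108, limma). Irf8 held 37.1% in vehicle and 45.3% with AOAH (difference -0.49, adjusted p = 5.82e-06, limma). Its difference from PC, -0.14 (adjusted p = 0.0151, limma), missed the threshold when PC replicate 1 was left out (adjusted p = 0.0570, limma, over all interferon regulatory factors).

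Several leads stood between those of the treated groups. Ezh2 held 91.6% ± 0.491 (SD, n = 4) in vehicle, 94.7% ± 0.0523 (SD, n = 4) with AOAH and 88.3% ± 0.484 (SD, n = 3) with PC, with differences of -0.68 (adjusted p = 2.58e-06, limma) and 0.52 (adjusted p = 1.83e-05, limma). Jak1 held 54.4%, 48.2% and 58.7% in that order, and Rrm2 56.9%, 59.2% and 50.3%, all 4 differences passing the test. Gzmb held over 99% in all 11 libraries, and its lead over the other granzymes differed by -0.41 from AOAH (adjusted p = 0.0179, limma) and 0.49 from PC (adjusted p = 0.0108, limma).

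Some leads differed from PC more than from AOAH. Id2 held 57.5% ± 1.71 (SD, n = 4) in vehicle and 41.3% ± 0.549 (SD, n = 3) with PC, where Id3 was higher in all 3 libraries (difference 0.92, adjusted p = 5.82e-06, limma). With AOAH, Id2 held 50.4% and was highest in 2 of 4 libraries (difference 0.40, adjusted p = 0.000683, limma). Batf held 76.1% in vehicle and 88.2% with PC (difference -1.09, adjusted p = 2.54e-05, limma), as Batf3 stood at 14.1 and 5.55 TPM. With AOAH its difference was -0.25 (adjusted p = 0.0623, limma). Gata1 held 53.9% ± 7.98 (SD, n = 4) in vehicle and 30.1% ± 2.94 (SD, n = 3) with PC, at under 4 TPM in both (difference 1.04, adjusted p = 0.00732, limma). Whether the differences from AOAH and from PC differ from each other was not tested.

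Genes that mark other cells were looked for in 17 lists with 156 genes, of which 130 are in the table. Of these, 88 stayed under 1 TPM in all 4 vehicle libraries (67.7%, against 51.5% of all genes), and 22 reached 1 TPM in every library (16.9%, against 42.9%). The share listed at 0 throughout, 19 genes (14.6%), was near the 15.0% of all genes. No gene of the table is at 0 in all 11 libraries, so each gene at 0 here had a value in a treated library. The 26 listed genes that are not in the table are left out of these shares. All 17 genes of T cell identity, led by Thy1 at 748 TPM, and all 7 of the CD8 lineage list, by contrast, reached 1 TPM in every library.

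**Figure D4:**
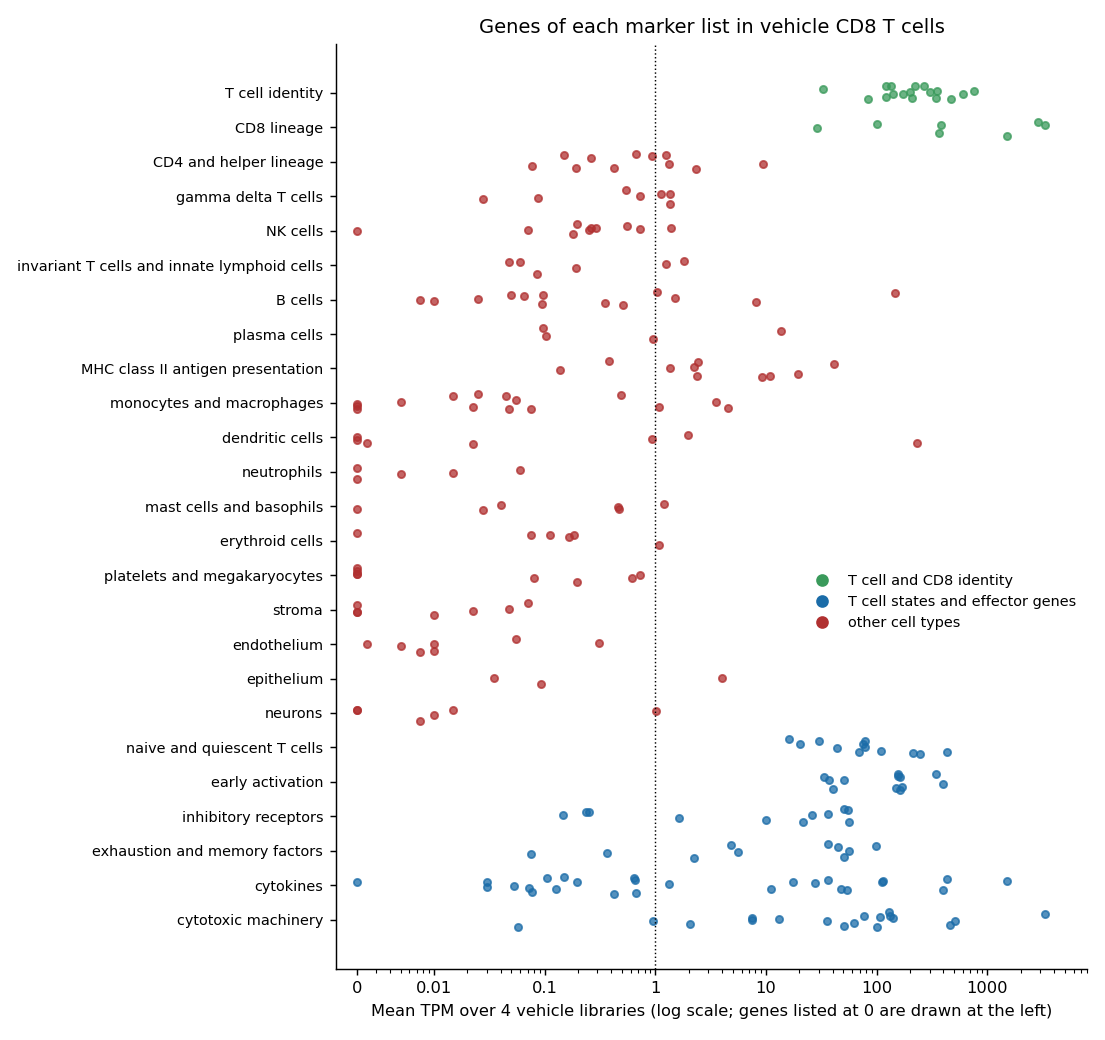
Mean TPM over the 4 vehicle libraries of every gene in 25 lists, on a log axis with genes listed at 0 drawn at the left edge and the 1 TPM level dotted. Every gene of the T cell identity and CD8 lineage lists lies above 1 TPM, most genes of other cell types lie under 1 TPM, and Ighm, Bst2 and genes of MHC class II stand out to the right.

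Most listed myeloid, blood and tissue genes stayed under 1 TPM. The 5 neutrophil genes used here, of 11 listed, summed to between 0 and 0.13 TPM, led by Mpo at 0.06 TPM, and Cxcr2 and Ltf were listed at 0. Monocyte and macrophage genes were led by Cd68 (4.53 TPM), a lysosomal protein, while C1qa and Cd14 were listed at 0, Csf1r stood at 0.045 TPM and Lyz2 at 1.08 TPM. Clec9a and Siglech of dendritic cells were listed at 0, Flt3 stood at 0.0225 TPM, and Bst2, which interferon induces in many cells, at 222 to 245 TPM. Mast cell and basophil genes were led by Kit at 1.19 TPM with Cpa3 listed at 0. The erythroid list, which does not hold Gata1 (3.81 TPM, described with its family), was led by Epor at 1.07 TPM with Hba-a1 listed at 0, and platelet genes by Itga2b at 0.733 TPM with Gp1bb, Gp6, Gp9 and Treml1 listed at 0. Stroma was led by Pdgfrb at 0.07 TPM with Col3a1, Dcn and Pdgfra listed at 0, endothelium by Vwf at 0.312 TPM, and neurons by Map2 at 1.01 TPM with Stmn2 and Syt1 listed at 0. Epcam, an epithelial adhesion molecule, stood at 4.27, 3.70, 3.60 and 4.31 TPM, while Krt18 and Cdh1 had means under 0.1 TPM.

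Genes of other lymphoid cells had mostly low values. NK cell genes were led by Klra7 at 1.39 TPM, with Ncr1 at 0.195 TPM and Kir3dl1 listed at 0. The gamma delta list was led by Trdc at 1.37 TPM, and that of invariant T cells and innate lymphoid cells by Il1rl1 at 1.81 TPM, with Zbtb16, which encodes PLZF, at 0.085 TPM. In the helper list Foxp3 stood at 0.935 and Zbtb7b, which encodes ThPOK, at 2.34 TPM. Cxcr5 was its highest gene, at 11.8, 11.4, 9.20 and 5.01 TPM, low in vehicle 4. Plasma cell genes were led by Tnfrsf13b at 13.5 TPM, with Jchain at 0.0975 TPM.

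B cell genes were uneven. Ighm, the mu heavy chain constant region, stood at 143, 143, 146 and 148 TPM, level across the 4 libraries. In the same libraries Cd79b stood at 8.10 TPM, Ighd at 1.52, Igkc at 1.04, Cd79a at 0.347 and Ms4a1 at 0.065 TPM. In the authors' deposited repertoire table the 4 vehicle libraries had 1, 3, 1 and 4 immunoglobulin heavy chain clonotypes. Light chain clonotypes, labelled IGL, numbered 4, 7, 5 and 5. Beside them stood 991 to 1264 clonotypes of the T cell receptor alpha chain and 2017 to 2649 of the beta chain. Of the 13 B cell genes listed 9 stayed under 1 TPM in all 4 libraries, and without Ighm the list summed to 10.9 to 13.4 TPM, most of it Cd79b. Genes of MHC class II were led by H2-DMa at 41.3 TPM, with Cd74 at 19.6 TPM, H2-Ob at 10.9, H2-Oa at 9.23, and the classical chains H2-Aa, H2-Ab1 and H2-Eb1 at 2.45, 2.39 and 2.24 TPM. Their transactivator Ciita stood at 0.138 TPM.

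Genes that vary between the 4 vehicle libraries were found by the SD of log2(TPM + 1). Over the 9029 genes averaging 5 TPM or more, the median SD was 0.0752, and 0.0729 among the AOAH libraries. An SD over 0.5 was found for 113 genes (1.25%), of which 49 had an SD over 1. The last gene inside was Ccl27a at 0.503 and the first outside Gm19705 at 0.498. Since no counts per library were used, the part of counting error was estimated from the authors' deposited base mean: the median SD was 0.118 against 0.0783 from counting at 5 to 10 TPM, and 0.0310 against 0.00911 above 1000 TPM.

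**Figure D5:**
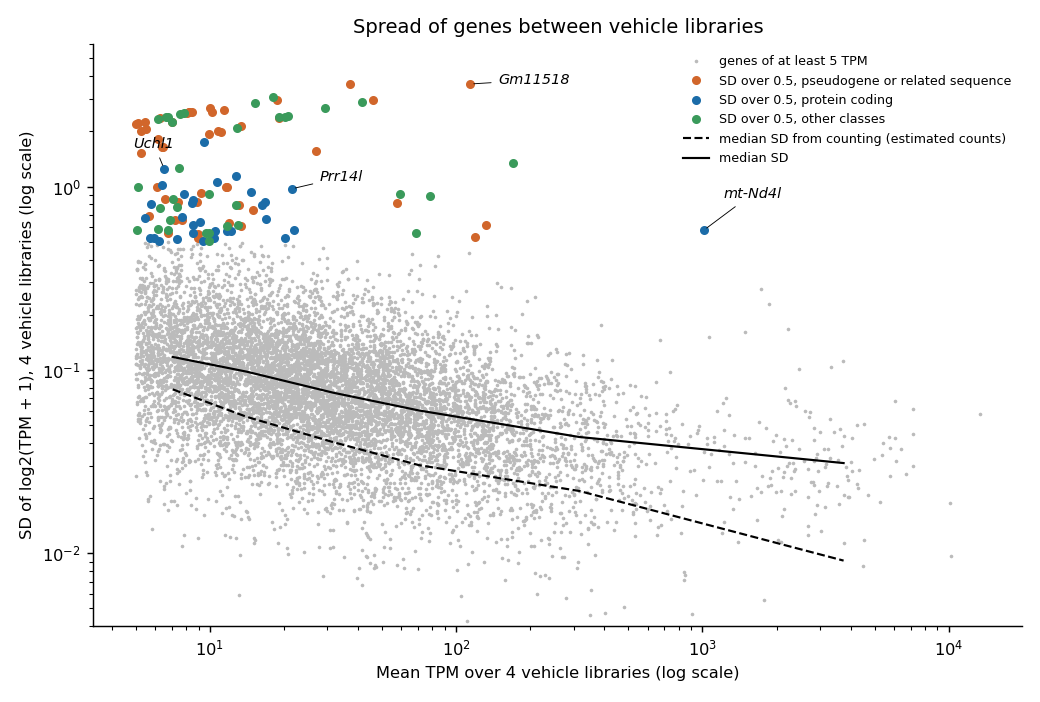
SD of log2(TPM + 1) over the 4 vehicle libraries against mean TPM for 9029 genes, both axes on log scales. Coloured points mark the 113 genes with an SD over 0.5 by class, the solid line is the median SD and the dashed line the median SD from counting. Most coloured points are pseudogenes or other noncoding genes at low TPM, and mt-Nd4l is the one above 1000 TPM.

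Most variable genes were copies of other genes. Pseudogenes and related sequences made up 48 of the 113 (19.0% of the 252 tested in that class), protein-coding genes 31 (0.368% of 8432), receptor segments 10 (13.3% of 75) and small noncoding RNAs 10 (28.6% of 35). Of the 102 variable genes with a transcript sequence, 62.7% had another gene's transcript of at least 95% identity over at least 80% of their length, beside 4.66% of all such genes of at least 5 TPM. In AOAH libraries 57 of the 113 (50.4%) also had an SD over 0.5, beside 92 of all 9029 genes (1.02%).

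Several variable genes had an identical copy. Gm11518 was listed at 157, 150, 0 and 150 TPM, and Rpl27-ps3 at 0, 0, 148 and 0 TPM, so that their sum stayed between 148 and 157 TPM. Both hold 411 bases that are identical to each other and to Rpl27, a ribosomal protein gene. Gm11518 had the largest SD of all, 3.63, and has no symbol of its own. Rps12-ps3 stood at 29.5, 36.7, 38.2 and 3.14 TPM and Rps12l1 at 0, 0, 0 and 32.4 TPM, with a sum of 29.5 to 38.2 TPM, identical over the 399 bases of Rps12l1. Rn7s1 and Rn7s2, copies of the RNA of the signal recognition particle with the same 300 bases, had equal values in 10 of 11 libraries, and in vehicle 4 one was at 0 and the other at 147 TPM. Their sum ranged from 67.9 to 158 TPM, so it was not level across the vehicle libraries. Reads from identical stretches cannot be told apart, and those of Gm11518 and Rpl27-ps3 not from Rpl27 either, so neither the single values nor the sum measures these pseudogenes.

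Other named genes of large SD were also mostly pseudogenes or small RNAs. Tma7-ps stood at 0, 61.2, 34.1 and 89.4 TPM, Rpl38-ps2 at 0, 58.7, 16.3 and 0, Rpl30-ps9 at 17.0, 0, 0 and 28.5, Rpl30-ps10 at 15.5, 17.4, 0 and 6.70, Pgk1-rs7 at 0, 0, 15.5 and 12.7, and Mrps36-ps1 at 0, 5.51, 11.4 and 8.92 TPM. Tma7-ps and Rpl38-ps2 rested on an estimated mean of 1.44 and 1.23 counts, and Mrps36-ps1 on 3.69. The small nucleolar RNAs Snora73b (0, 34.6, 57.1 and 26.2 TPM), Snora73a (0, 19.9, 22.1 and 38.4) and Snora74a (0, 0, 30.2 and 0) and the host transcript Snhg9 (0, 0, 0 and 27.1) rested on an estimated mean of 0.267 to 1.51 counts. Rmrp, the RNA of an RNA-processing enzyme, stood at 3.21, 21.02, 3.64 and 2.09 TPM, in a row that may combine gene IDs. Receptor segments Trav12n-3 (9.94, 18.1, 0 and 0 TPM) and Trav12d-3 (11.4, 0, 16.6 and 23.4) belong to a cluster of near-identical copies. Over all 113, 23 were highest in vehicle 1, 27 in vehicle 2, 28 in vehicle 3 and 35 in vehicle 4.

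Protein-coding genes with a large spread were few and differed in which library was high. Uchl1, a ubiquitin hydrolase best known from neurons, stood at 2.54, 18.6, 2.91 and 2.08 TPM, high in vehicle 2 alone, with an SD of 1.25 against 0.171 from counting. Ccdc191 stood at 5.22, 4.08, 21.9 and 19.9 TPM, high in vehicle 3 and 4. Pagr1a stood at 4.43, 9.52, 4.43 and 24.4 TPM, highest in vehicle 4. Prr14l, chosen after its values were seen, stood at 9.48, 34.5, 9.91 and 32.2 TPM, in the same order as vehicle 1 and 3 against vehicle 2 and 4, and its SD with AOAH was 1.17. mt-Nd4l, a respiratory chain subunit that overlaps mt-Nd4 on the mitochondrial genome and was also chosen after its values were seen, stood at 1089, 703, 1581 and 677 TPM. Its SD was 0.58 in vehicle and 0.16 with AOAH. Pagr1a and mt-Nd4l each had a near-identical transcript of another gene, by the identity and length limits given above. Reads of Pagr1a and mt-Nd4l could therefore be split between copies, and their spread may not be that of the gene itself. No such copy was found for Uchl1, Ccdc191 and Prr14l.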

How the data were processed

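RNA-seq values of 11 libraries of mouse CD8 T cells were used, of which the 4 vehicle libraries are described. Per the submitters' processing notes, the authors used RSEM, DESeq2 and the genome build mm39; no source used here gives the aligner, annotation, versions or use of molecular identifiers. The authors deposited log2 values of TPM plus 1 for 25562 gene symbols. These were back-transformed to TPM, which summed to between 998593 and 998655 per vehicle library. The authors' deposited base means, a signal made by dividing counts by size factors (23418 gene IDs, 22521 matched to a symbol through GENCODE M21) gave rough counts per gene, and the authors' deposited clonotype counts per library were copied without a test. Samples were grouped by their treatment label. Gene lists and families were chosen with earlier results of these data known.

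Named genes are the 4 markers, the 25 highest means, the first and second paralog of each family, the 20 largest SDs with a symbol of their own, and the highest member and members at 0 of each marker list. Other list members are examples named after their values were seen. Some genes that this rule selects are not reported here by name, but stay in all counts and tests. Family leads were fitted with limma 3.58.1 (R 4.3.3) over all 11 libraries without a block. When 20 of 96 families were shifted by 0.25, 0.5 or 1 (log2) in data simulated for the comparison of vehicle with AOAH, 67.8, 91.8 and 98.8% of them were recovered, and 3.58, 2.62 and 5.72% of those called were false. The labels number libraries by batch, which pairs groups. Deviations from the group mean correlated at a median of -0.0163 over 10 pairs of the same number and -0.00838 over 30 pairs of different numbers, and no vehicle library was best correlated with its own number. Transcript copies were found with blastn 2.17.0 in GENCODE M21. Alternatives covered libraries left out, scaling, thresholds, pseudocounts, filters and the block.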

Additional observations from a re-analysis of the deposited data

Results flagged for a closer look

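In 11 of 184 values or shares looked at (5.98%), 1 vehicle library stood apart from the other 3 by Dixon's criterion for 4 samples, and chance alone gives about 5%. Among the 20 named variable genes 6 were of this kind: Rpl27-ps3 (148 TPM in vehicle 3), Rps12l1 (32.4 TPM in vehicle 4), Snora74a (30.2 TPM in vehicle 3) and Snhg9 (27.1 TPM in vehicle 4), each listed at 0 in the other 3, with Rmrp (21.02 TPM in vehicle 2, 2.09 to 3.64 TPM in the others) and Uchl1 (18.6 TPM in vehicle 2, 2.08 to 2.91 TPM in the others). These genes were chosen for their spread, so the share among them is no result. Without them 5 of 164 (3.05%) had a library apart.

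Of 25 marker lists 2 had a library apart. The endothelial list summed to 1.18 TPM in vehicle 4 and 0.11 to 0.17 TPM in the others, and the erythroid list to 2.11 TPM in vehicle 4 and 1.40 to 1.51 TPM in the others. Of 96 family shares 3 did: S1pr4 held 53.0% of its family in vehicle 3 and 50.4 to 50.8% in the others, and Pkm (99.9984%) and Cox4i1 (99.9818%) were under 100% only in vehicle 1. None of the 25 most abundant genes, the 4 markers or the 14 functional groups had a library apart by this criterion.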

How the results depend on the processing

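Of the 25 most abundant genes, 24 to 25 stayed in the set when a vehicle library was left out, 22 after rescaling without the mitochondrial genome and receptor segments, and 25 with TMM factors. The share of ribosomal proteins was 27.9 to 28.2% with a library left out and 29.2% after that rescaling. Led families numbered 74 to 75 with a library left out, 30 at a share of over 75%, 37 on the deposited log2 values, which compress ratios by construction, and 73 of 95 without the aldolases. Variable genes numbered 108 to 130 with a library left out, of which 80 to 94 were among the original 113, and 136 or 77 with a pseudocount of 0.1 or 5. They numbered 684 with no filter on the mean, 379 from 1 TPM, 19 from 20 TPM and 49 at an SD over 1. Counted after seeing the data, 31 were protein-coding and 38 had no near-identical copy. Genes of other lineages under 0.5 and 5 TPM numbered 81 and 120 of 130.

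With batch number as a replicate block, the lead differed in 44 families against AOAH and in 44 against PC, and with a library left out in 40 to 48 and in 37 to 47. Of the 44 against PC with the block, 38 were among the 44 without it. Of 91 differences, 67 passed the test under every setting tried, 24 were lost under at least 1, and none reversed. TPM keeps no depth, so low values have an unknown counting error.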
